A study of Mus musculus with 6 samples.

Results

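The CD28-B7 family holds the receptors through which a T cell receives a second, costimulatory signal beside that of its T cell receptor (TCR), and the ligands that engage them. The genes described here are 7 members of that family out of 19937 genes with a row of their own in the expression table. They were chosen by name, as the rows whose single gene symbol in the platform's annotation was Cd28, Icos, Cd80, Cd86, Icosl, Cd274 or Pdcd1lg2. For Cd80, which has 2 rows, the brighter row on average was kept. All 7 genes passed the filter on low values, a mean of at least 5.21 on the log2 scale, and entered the test.

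The samples are CD4+ TCRβ+ CD25+ cells, a sort of regulatory T cells (Tregs), taken from lymph nodes and spleen 5 days after T cells of wild-type mice were given to recipients. The strain is C57BL/6 and the age 6 to 8 weeks. All recipients were CD3ε-deficient and so had no T cells of their own. They either kept MHC class II (MHC II-competent, 3 arrays) or were deficient in both CD3ε and MHC class II (MHC II-deficient, 3 arrays). The loss of MHC class II was in the recipient, so the transferred cells lacked the ligand of their TCR on the cells of the host while still carrying their own genes. The labels call the replicates biological and do not say whether each was 1 recipient or a pool. A p-value here weighs a difference against the spread between 3 such preparations per group. In limma's test the spread of each gene is drawn towards a value shared by all genes tested.

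CD28 is carried by resting T cells and binds CD80 (B7-1) and CD86 (B7-2), which antigen-presenting cells display and which CTLA-4 also binds. ICOS is a related receptor that appears after activation, is abundant on Tregs with an effector phenotype and binds ICOS ligand. PD-L1, encoded by Cd274, and PD-L2, encoded by Pdcd1lg2, are the ligands of the inhibitory receptor PD-1. PD-L1 is found on many cells and is known to be induced by interferons, and activated T cells can carry CD80, CD86 and PD-L1 themselves.

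In the cells sorted from MHC II-deficient recipients the receptor gene Icos fell, 1.62-fold, and the ligand genes Cd86 and Cd274 rose, 2.14-fold and 1.89-fold (3 arrays per group). These 3 of 7 members were past the threshold, a Benjamini-Hochberg adjusted p under 0.05 in limma's moderated test over all 15037 genes tested, where 3.37% of genes were past it. The higher direction held 1.34% (201 genes) and the lower 2.03% (306 genes) of all genes tested, and quantile normalization gave 246 higher and 231 lower. The values of the 2 groups did not overlap for 6 of the 7 members, against 24.3% of all genes tested. Of these 6, 2 lay above the MHC II-competent range (11.4% of all genes tested) and 4 lay under it (12.9%). Both receptors lay lower, with a median log2 difference of -0.53, while the 5 ligands split into 3 higher and 2 lower with a median of 0.11. The median over all genes tested was 0.02. These values come from the whole sort, in which fewer cells of a type and less RNA per cell cannot be told apart.

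**Figure D1:**
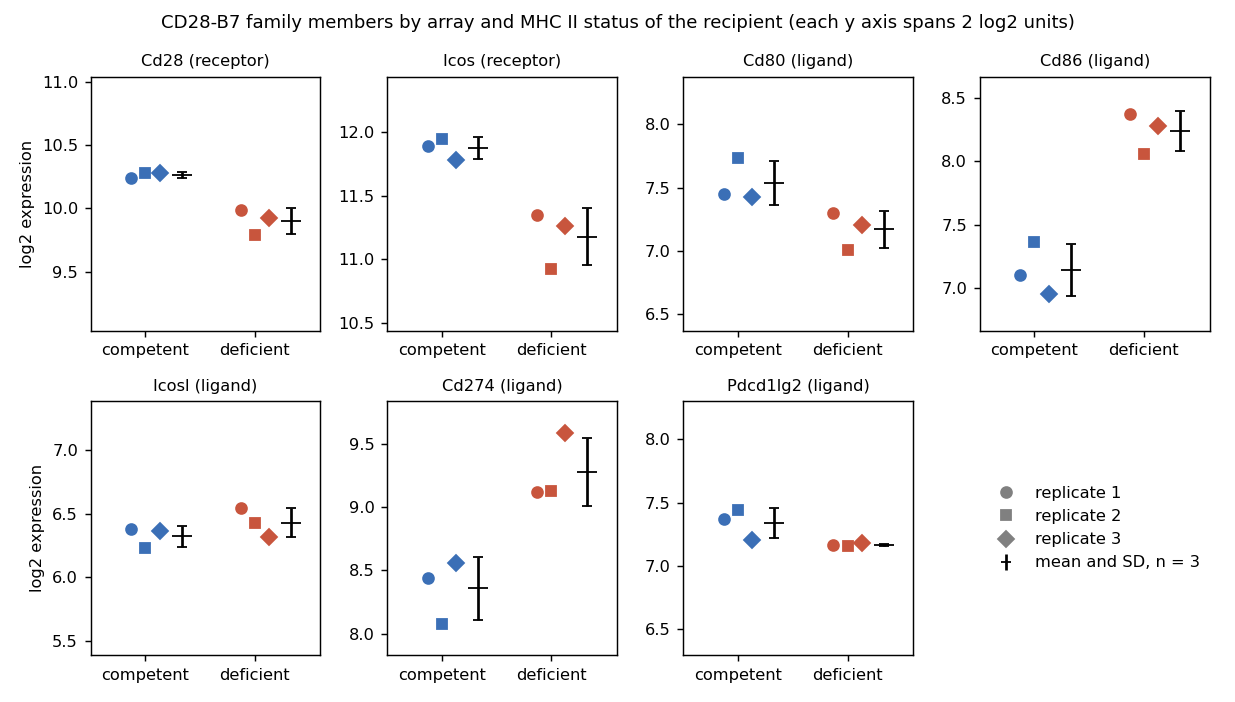
Each panel gives the log2 expression of a member in the 3 MHC II-competent (blue) and 3 MHC II-deficient (red) arrays, with the mean and SD beside the points and every y axis spanning the same length. Icos and Cd28 lie lower and Cd86 and Cd274 higher in all 3 MHC II-deficient arrays, while the Icosl groups overlap.

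Icos encodes the inducible costimulator. Its log2 expression in MHC II-competent replicates 1 to 3 was 11.89, 11.95 and 11.78, and in MHC II-deficient replicates 1 to 3 it was 11.35, 10.92 and 11.27. Values of the other members follow in the same order. The groups did not overlap. The highest MHC II-deficient array lay 0.43 below the lowest MHC II-competent one, and replicate 2 was the lowest of the MHC II-deficient arrays. Icos fell by 0.70 on the log2 scale (SE 0.13, 95% interval from -0.98 to -0.41, limma adjusted p = 0.0210). Of all genes tested, 148 (0.984%) had a more negative difference. The call of Icos ended without MHC II-competent replicate 1 (adjusted p = 0.0643), MHC II-competent replicate 2 (0.0882) or MHC II-deficient replicate 2 (0.0601), with differences of -0.69, -0.66 and -0.57.

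Cd28 encodes the founding receptor of the family. Its MHC II-competent values were 10.24, 10.28 and 10.28, against 9.99, 9.79 and 9.93 in MHC II-deficient arrays. All 3 MHC II-deficient values lay below all MHC II-competent ones, with a gap of 0.25. The log2 difference of -0.36 (SE 0.09, 95% interval from -0.58 to -0.15) was not past the threshold (limma adjusted p = 0.0747). It was past it with a trended, robust prior of the variance (adjusted p = 0.0410).

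The 2 receptors were also compared within each array. Icos minus Cd28 was 1.65, 1.67 and 1.50 for MHC II-competent arrays, against 1.36, 1.13 and 1.34 for MHC II-deficient ones. The level of such a difference depends on the probes and carries no meaning, but its change does not. It was -0.33, so Icos lay further below its MHC II-competent level than Cd28 did. The two-sided exact permutation test over the 20 splits of the 6 arrays gave p = 0.1, the smallest that 3 against 3 arrays allow, so this design cannot reach 0.05. Over the 3 pairs of members compared in this way the adjusted p was also 0.1.

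Cd28, Ctla4 and Icos follow each other directly in the RefSeq gene table of GRCm38.p6, which was used for gene order. Ctla4 encodes the inhibitory receptor that competes with CD28 for CD80 and CD86 and is abundant in Tregs. Its mean was 11.45 ± 0.07 (SD, n = 3) with MHC class II in the recipient and 11.13 ± 0.19 (SD, n = 3) without. The groups did not overlap, but the log2 difference of -0.33 (95% interval from -0.58 to -0.07) did not pass (limma adjusted p = 0.165). The remaining receptors of the family lay closer to 0. Pdcd1, the gene of PD-1, differed by -0.06 (95% interval from -0.28 to 0.15) and Btla, the gene of the inhibitory receptor BTLA, by -0.12 (95% interval from -0.49 to 0.26). Of these 3 other CD28-family receptors 0 passed limma's threshold and 1, Ctla4, had an unadjusted p under 0.05, as 18.9% of all genes tested did.

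**Figure D2:**
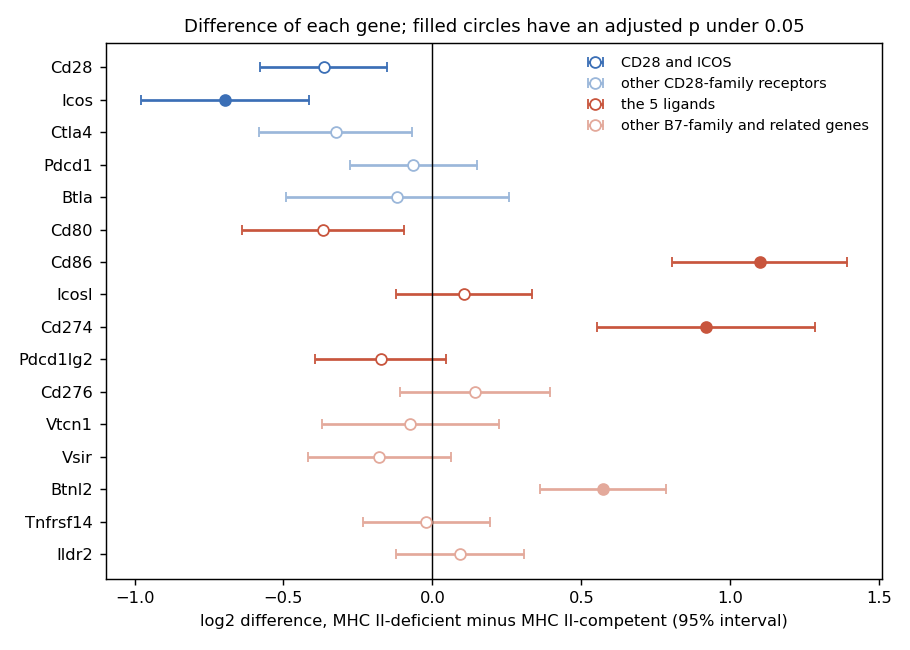
Log2 differences (MHC II-deficient minus MHC II-competent) with limma's 95% intervals for the 7 members, 3 other CD28-family receptors and 6 other B7-family and related genes. Filled circles mark an adjusted p under 0.05, which Icos at -0.70, Cd86 at 1.10, Cd274 at 0.92 and Btnl2 at 0.57 reached.

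Among the ligands of CD28 and CTLA-4, Cd86 rose. Its MHC II-competent values of 7.11, 7.36 and 6.96 compare with MHC II-deficient values of 8.37, 8.06 and 8.28. The groups were separated by 0.70, more than the range of either group (0.41 and 0.31). The log2 difference was 1.10 (SE 0.13, 95% interval from 0.80 to 1.39, limma adjusted p = 0.00344), and 53 of the genes tested (0.352%) had a larger increase. Cd86 stayed past the threshold with each single array left out, with a difference from 1.01 to 1.21 and a highest adjusted p of 0.0219.

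Cd80, the other ligand of the same receptors, did not share that increase. Its kept row (10435712) gave 7.45, 7.73 and 7.42 on MHC II-competent arrays, against 7.30, 7.01 and 7.20 on MHC II-deficient ones. The groups did not overlap, by a margin of 0.13. The log2 difference of -0.37 (SE 0.12, 95% interval from -0.64 to -0.09) did not pass (limma adjusted p = 0.143). Its other row (10435704) stood at 7.37, 7.40 and 7.66 against 7.42, 6.75 and 6.83, a difference of -0.48 with overlapping groups. Both rows of Cd80 thus had a lower mean in the MHC II-deficient group. Within an array, Cd86 minus Cd80 was -0.35, -0.37 and -0.47 for MHC II-competent arrays, against 1.08, 1.05 and 1.08 for MHC II-deficient ones. The change of 1.46 is large against the spread of the 2 groups (SD 0.06 and 0.02), and the exact permutation p was 0.1, the smallest the design allows. This pair was chosen after the values were seen.

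**Figure D3:**
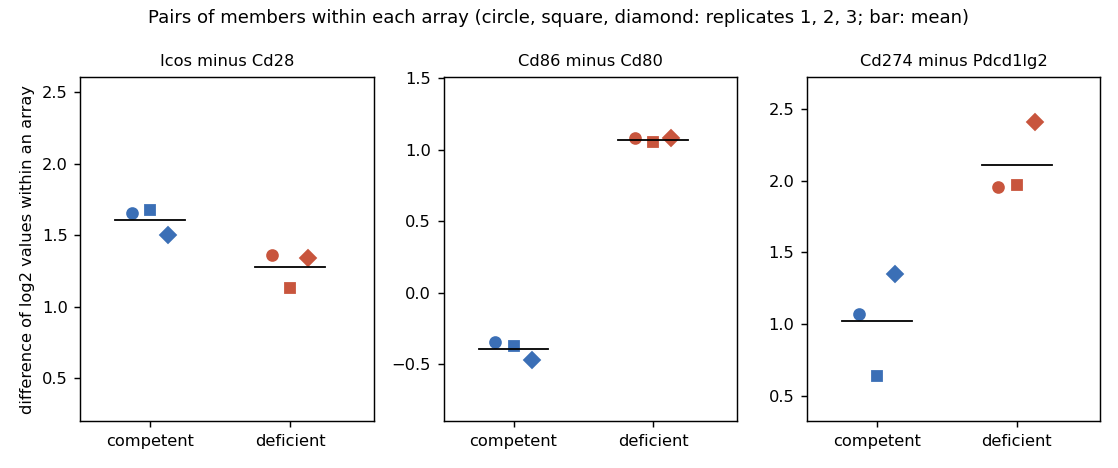
Differences of log2 values between 2 members within each array, with circle, square and diamond for replicates 1, 2 and 3 and a bar for the group mean. The change between groups was -0.33 for Icos minus Cd28, 1.46 for Cd86 minus Cd80 and 1.09 for Cd274 minus Pdcd1lg2.

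The genes of the PD-1 ligands, Cd274 and Pdcd1lg2, are neighbours in the RefSeq table, on the same strand with starts 43.5 kb apart, and the sizes of their differences were unequal. Cd274 had MHC II-competent values of 8.44, 8.08 and 8.56 and MHC II-deficient values of 9.12, 9.13 and 9.59. The groups did not overlap, with a gap of 0.56, and MHC II-deficient replicate 3 was the highest array. The log2 difference was 0.92 (SE 0.16, 95% interval from 0.55 to 1.29, limma adjusted p = 0.0195), and 80 of the genes tested (0.532%) had a larger increase. The call ended without MHC II-competent replicate 2, the lowest array (difference 0.78, adjusted p = 0.0770).

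Pdcd1lg2 had MHC II-competent values of 7.37, 7.44 and 7.20 and MHC II-deficient values of 7.16, 7.16 and 7.18. The groups were apart by 0.03, which is small against the range of 0.24 within the MHC II-competent group. The log2 difference of -0.17 (95% interval from -0.39 to 0.05) did not pass (limma adjusted p = 0.382). Cd274 minus Pdcd1lg2 within an array was 1.07, 0.64 and 1.35 against 1.95, 1.97 and 2.41, a change of 1.09 (exact permutation p = 0.1, the smallest possible). This pair too was chosen after the values were seen.

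The stretches upstream of the neighbouring genes of this unequal pair, and of Cd80, are shown from RefSeq for GRCm38.p6, as the 250 bases before each annotated start. The table used holds such a window for 4 of the 7 members, Cd80, Icosl, Cd274 and Pdcd1lg2. Both strands were searched for these motifs. GAAANNGAA, the core of the interferon-stimulated response element, is in 7.13% of all 32851 windows of the same length, TTCNNNGAA, the interferon gamma activated site, in 7.02%, TGANTCA, the AP-1 site, in 6.75%, and TGGAAAA, an NFAT core, in 5.93%. An NF-kappaB site of 10 letters, in 4.11% of windows, was searched as well. In the 4 member windows 2 matches were found, which capitals mark and which overlap no other match. One is to the core of the response element in Cd274, on the opposite strand, from position -76 counted back from the start. The other is to the AP-1 site in Cd80 from position -42. A longer form of the response element with 1 more A at its end, in 2.98% of all windows, was searched first and had 0 matches in the 4 windows, so the Cd274 match is to the shorter letters alone. A match is a description of letters, and its absence says nothing about other letters or places. The windows are chr19:29367188-29367437 (+) for Cd274, chr19:29410669-29410918 (+) for Pdcd1lg2 and chr16:38458683-38458932 (+) for Cd80.
Cd274: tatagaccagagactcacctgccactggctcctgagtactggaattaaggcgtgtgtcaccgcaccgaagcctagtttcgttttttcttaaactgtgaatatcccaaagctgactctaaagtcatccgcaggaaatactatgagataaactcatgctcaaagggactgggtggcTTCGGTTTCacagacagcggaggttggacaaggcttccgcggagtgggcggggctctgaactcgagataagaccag
Pdcd1lg2: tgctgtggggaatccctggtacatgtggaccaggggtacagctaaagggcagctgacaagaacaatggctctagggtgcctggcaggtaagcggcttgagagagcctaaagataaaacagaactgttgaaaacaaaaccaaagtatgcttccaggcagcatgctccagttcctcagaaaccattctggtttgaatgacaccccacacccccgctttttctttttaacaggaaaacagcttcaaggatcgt
Cd80: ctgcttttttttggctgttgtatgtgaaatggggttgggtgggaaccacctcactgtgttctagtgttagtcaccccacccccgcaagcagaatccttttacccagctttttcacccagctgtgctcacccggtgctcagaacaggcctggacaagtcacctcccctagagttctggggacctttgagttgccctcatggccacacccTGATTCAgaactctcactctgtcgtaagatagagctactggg

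Icosl, the gene of the only known ligand of ICOS, is the member whose groups overlapped. Its values were 6.38, 6.23 and 6.37 with MHC class II in the recipient, against 6.55, 6.43 and 6.32 without. The log2 difference was 0.11 (95% interval from -0.12 to 0.33, limma adjusted p = 0.627), so an increase of up to 0.33 or a decrease of up to 0.12 lies within the interval. The receptor of this pair fell while its ligand did not pass the test.

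Among 6 other B7-family and related genes 1 rose. Btnl2, a butyrophilin-like gene whose protein restrains T cell activation, had MHC II-competent values of 6.41, 6.28 and 6.26 and MHC II-deficient values of 6.83, 6.89 and 6.95. The log2 difference was 0.57 (SE 0.09, limma adjusted p = 0.0145). Its call ended without MHC II-competent replicate 2 (0.0567), MHC II-deficient replicate 1 (0.0527), 2 (0.0601) or 3 (0.0510), and with the macrophage mean (log2 0.61, adjusted p = 0.129) or the dendritic cell mean (0.61, adjusted p = 0.165) as a covariate. The other 5 (Cd276, Vtcn1, Vsir, Tnfrsf14 and Ildr2, named to complete the list) did not pass, with differences from -0.18 to 0.14.

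Markers of other cells were followed because CD80, CD86 and PD-L1 are also carried by antigen-presenting cells. Of 9 T cell and 7 Treg markers 0 passed limma's threshold, and 0 and 3 had an unadjusted p under 0.05. All 9 T cell and 6 of the 7 Treg markers had a difference below 0, but only 5 and 4 did with quantile normalization, and the 3 Treg genes (Il2ra, Ctla4 and Ikzf2) lay on the same side as Icos and Cd28. The mean of 9 T cell markers ran from 11.08 to 11.30 for MHC II-competent and from 11.07 to 11.13 for MHC II-deficient arrays. The mean of 7 Treg markers ran, in the same order, from 10.04 to 10.32 and from 10.02 to 10.10. The mean of 13 macrophage markers was 6.34, 6.71 and 5.75 for MHC II-competent replicates 1 to 3, against 7.46, 7.24 and 6.67 for MHC II-deficient replicates 1 to 3. Of the 13, 12 had a difference above 0 and 1, the F4/80 gene Adgre1, passed (log2 1.39, SE 0.29, limma adjusted p = 0.0346), with a median difference of 0.90. An unadjusted p under 0.05 in limma's test was reached by 12 of the 13, against 18.9% of all genes tested. Itgam, the gene with a difference below 0 (-0.43), is among these 12. The call of Adgre1 ended when any array but MHC II-deficient replicate 3 was left out (highest adjusted p 0.106), with the trended, robust prior (0.0595), with median centring (0.0638) and with quantile normalization (0.0580). A fit with the replicate block put 8 of the 13 past the threshold, all higher, and array weights 3 higher and 1 lower. The mean of 8 dendritic cell markers ran from 6.39 to 6.42 and from 6.41 to 6.53 with 0 genes past limma's threshold (1 with an unadjusted p under 0.05). That gene, Ccr7 (log2 0.47, limma adjusted p = 0.0774), passed with quantile normalization (0.0391) and array weights (0.0470). Its means of 9.26 for MHC II-competent and 9.73 for MHC II-deficient arrays lay far above those of the next highest of the 8, Irf8 (7.39 and 7.26). Whether its values come from dendritic cells was not tested. The defining dendritic cell genes Xcr1 and Clec9a were under the filter value. The mean of 6 B cell markers ran from 5.90 to 6.09 and from 6.27 to 6.38, and 1 of them, Cd22, passed (log2 1.32, SE 0.14, adjusted p = 0.00250). Of the 6, 3 had an unadjusted p under 0.05: Cd22, Cd79a (0.46) and, in the other direction and without overlap of the groups, Cd79b (-0.39). The median difference of the 6 was 0.21, so the difference of their mean rests largely on Cd22. The B cell genes Ms4a1, Ebf1 and Cr2 were under the filter value, and Pax5 differed by 0.02. The mean of 6 CD8 T and NK cell markers ran from 7.72 to 7.84 and from 7.93 to 8.06, with 0 past limma's threshold (3 with an unadjusted p under 0.05), and Ncr1 and Klrb1c were under the filter value.

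Set beside the macrophage mean, Cd86 and Cd274 differed in their order over the arrays. MHC II-deficient replicate 3 had a macrophage mean of 6.67, below the 6.71 of MHC II-competent replicate 2, and a Cd86 value of 8.28 against 7.36 and a Cd274 value of 9.59 against 8.08. The single markers were mixed between these arrays, so they are not matched for each marker. In the same order, Adgre1 was 6.94 against 6.54 and Tyrobp 8.65 against 8.39, but C1qa was 7.37 against 7.49 and Itgam 6.15 against 6.66. Over the 3 MHC II-competent arrays Cd86 had the same order as the macrophage mean, highest in replicate 2 and lowest in replicate 3, and Cd274 had the reverse order. Over the 3 MHC II-deficient arrays the macrophage mean was highest in replicate 1 and lowest in replicate 3. There Cd86 did not have that order, as it was lowest in replicate 2. Cd274 was highest in replicate 3, and its values in replicates 1 and 2 were nearly equal (9.12 and 9.13). The part of macrophage RNA in the values of Cd86 and Cd274 was not tested beyond these values and the fits that follow. With the macrophage mean as a covariate in the fit, which leaves 3 residual degrees of freedom, the difference of Cd274 was 1.38 (SE 0.16) and stayed past the threshold (limma adjusted p = 0.0116). That of Cd86 was 0.89 (SE 0.19, adjusted p = 0.0867) and that of Icos -0.77 (SE 0.20, adjusted p = 0.133), so both lost their call with larger SEs, while Icos lay further from 0 and Cd86 nearer to it than without the covariate. With the mean of the dendritic cell markers as the covariate the differences were 1.24 for Cd274 (adjusted p = 0.0442), 1.14 for Cd86 (0.0605) and -0.60 for Icos (0.291). Of the 8 genes in that mean Ccr7 differed most (0.47, against a median of 0.04), so this fit does not adjust for dendritic cell content alone.

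**Figure D4:**
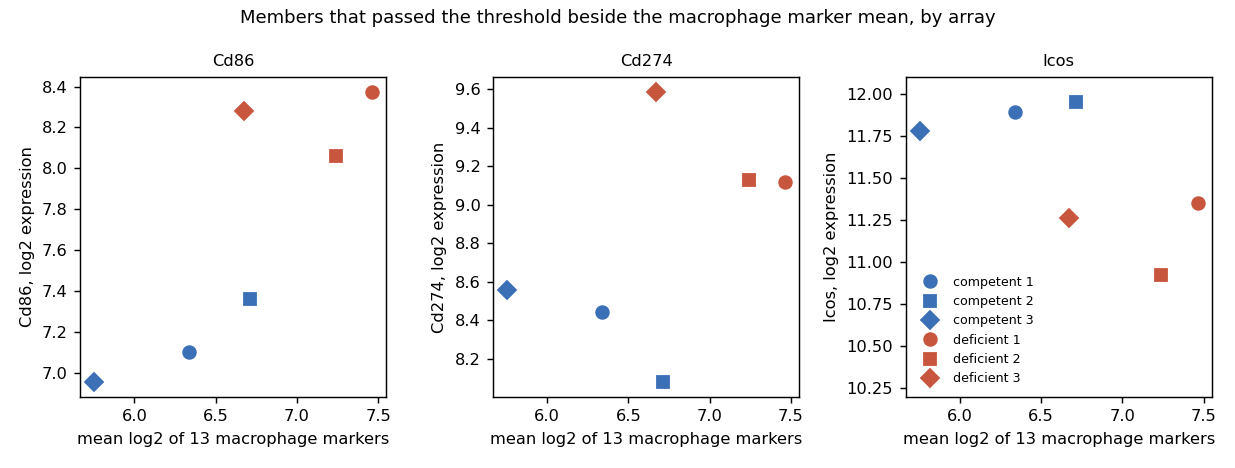
Log2 expression of Cd86, Cd274 and Icos against the mean log2 value of 13 macrophage markers, one point per array, blue for MHC II-competent and red for MHC II-deficient. MHC II-deficient replicate 3 and MHC II-competent replicate 2 have close macrophage means (6.67 and 6.71) and stand apart in all 3 genes. Single macrophage markers differ in both directions between these arrays.

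Genes that carry the signal of CD28 and ICOS inside the cell were followed as a list of 21, of which 17 had a row with a single symbol. Of these 17, 0 passed limma's threshold and 1 had an unadjusted p under 0.05. That gene, named after its values were seen, was Malt1, the paracaspase that links TCR and CD28 signals to NF-kappaB (log2 -0.45, SE 0.11, adjusted p = 0.0662), and it passed with array weights (0.0430) and without MHC II-competent replicate 3 (0.0427). The 17 lay between -0.45 and 0.24 with a median of -0.14. Of 5 genes that repress Icos mRNA or act as ubiquitin ligases of costimulation, 0 passed limma's threshold and 0 had an unadjusted p under 0.05. Their differences ran from -0.08 to 0.22.

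Genes known as targets of costimulation in T cells were mixed. The list held 14 genes, of which Nfkb1 had no row with a single symbol. Il21 was under the filter (mean 5.54 for MHC II-competent and 4.43 for MHC II-deficient arrays), and a fit without the filter put 4 of 13 past the threshold, all lower. Of 12 tested, 3 fell, where 2.03% of all genes tested did, and 0 rose, with a median of -0.16. They were Il10, which encodes a cytokine that dampens inflammation (-1.42, SE 0.15, adjusted p = 0.00207), Irf4, a transcription factor of effector Tregs (-0.89, SE 0.12, adjusted p = 0.00664), and Maf, a transcription factor that acts downstream of ICOS (-0.53, SE 0.10, adjusted p = 0.0223). The lower MHC II-deficient mean of Il10 (5.31) lay near the filter value, so its size is less sure. Maf lost its call when any of 5 arrays was left out, that is, all but MHC II-competent replicate 3 (highest adjusted p 0.0864). With the macrophage mean as a covariate Il10 alone of the 3 passed, as Irf4 stood at -1.06 (adjusted p = 0.0502) and Maf at -0.66 (0.0934).

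Genes of interferon signalling are given beside Cd274, whose induction by interferons is well known. Of 9 tested all had a difference above 0 (8 with median centring), as 54.0% of all genes tested did, and 3 rose, where 1.34% of all genes did, with a median of 0.33. Irf7 rose by 1.78 (SE 0.15, limma adjusted p = 0.000847), Stat2 by 1.26 (SE 0.12, adjusted p = 0.00136) and Irf1 by 0.76 (SE 0.12, adjusted p = 0.0102). Irf1 lost its call without MHC II-deficient replicate 1 (0.0508) and with the macrophage mean as a covariate (log2 0.55, adjusted p = 0.181). The receptor genes Ifngr1 (0.33, adjusted p = 0.223) and Ifnar1 (0.25, adjusted p = 0.204), chosen with their values known, were not past the threshold. Whether interferon signalling has a part in the values of Cd274 or Cd86 was not tested.

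Genes with the nearest profile were sought for the 3 members whose values spanned at least 1 log2 unit over the 6 arrays. Likeness was the root mean square distance between the profiles after each gene's own mean was subtracted. For Icos the nearest 4 were Pcgf1 (distance 0.039), Lamc1 (0.053), Macir (0.084) and Plcb4 (0.088), where Icos itself spanned 1.03. For Cd86, which spanned 1.42, they were Gm12185 (0.062), Xaf1 (0.084), Bst2 (0.099) and Gbp9 (0.10). For Cd274, which spanned 1.51, they were Oasl1 (0.137), Tlr7 (0.142), Tnfsf8 (0.153) and Zfp420 (0.161). These lists describe 6 arrays in 2 groups. Those of Cd86 and Cd274 share no gene, and the list of Icos, which changed in the other direction, could share none with them.

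**Figure D5:**
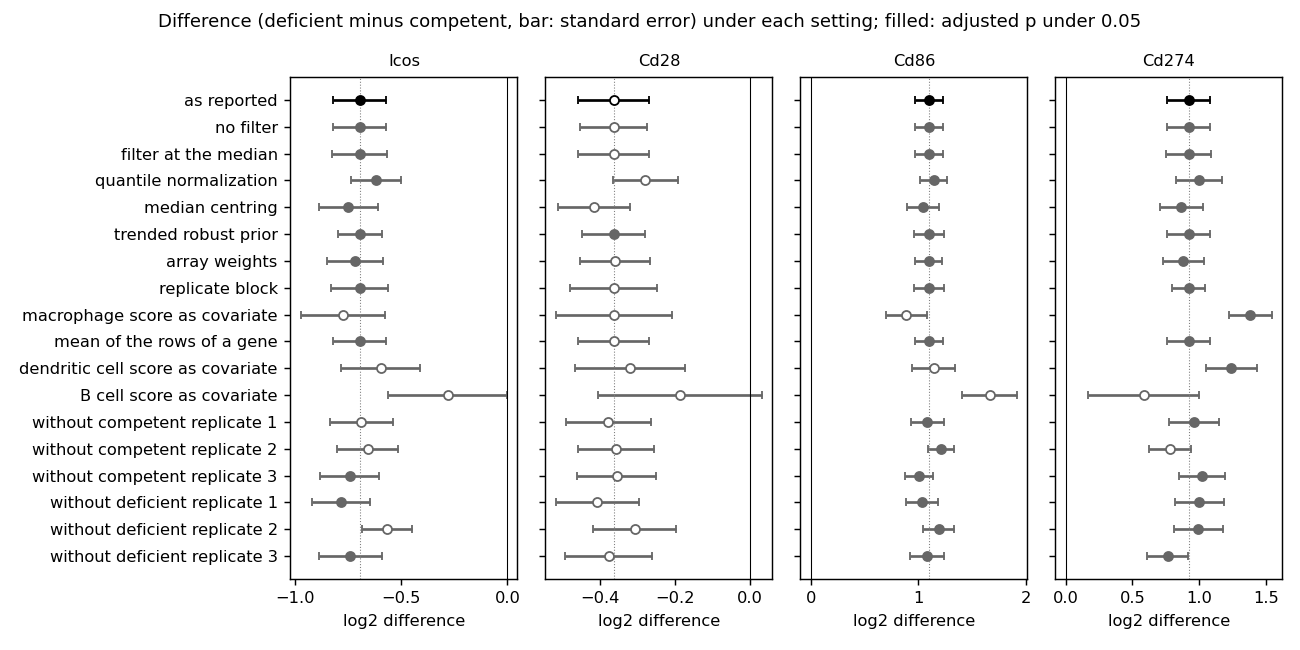
Log2 differences of Icos, Cd28, Cd86 and Cd274 with limma's standard errors under the reported setting and 17 alternatives; filled circles have an adjusted p under 0.05. Cd86 stays filled with each array left out and is open with each marker mean as a covariate. Icos is open without 3 of the arrays and with each of these covariates. Cd274 is open without MHC II-competent replicate 2 and with the B cell mean, and Cd28 is filled with the trended, robust prior alone.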

How the data were processed

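RNA of sorted cells (100 ng per array) was hybridised to 6 Affymetrix whole-transcript arrays, 3 per group, per the labels' protocols. The deposited table holds 1 log2 value per array for 28101 rows, which the authors computed by RMA (robust multi-array averaging) in affy, per the submitters' processing notes. The log base was not stated and was taken as 2. Versions and genome build are not given in the sources used here. Array medians lay between 6.11 and 6.25, and detection calls were not used. Of the rows, 21640 had 1 gene symbol, updated by Entrez identifier for 21553 of them. The row with the highest mean stood for a gene, and genes under the 25th percentile of the row means (5.21) were left out, which removed 4900 and left 15037.

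Differences are MHC II-deficient minus MHC II-competent, from limma 3.58.1 in R 4.3.3 (lmFit, eBayes, two-sided, no covariate, 4 residual degrees of freedom and 9.40 in total with the prior), with Benjamini-Hochberg adjustment over all genes tested and a threshold of 0.05. Errors of differences are limma's standard errors. The script was first tested on simulated data.

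The members and the gene lists were chosen with earlier results of these data known. Named genes were the members, the other CD28-family receptors, up to 4 called genes of each list by smallest p, and the 4 genes nearest in profile to each member spanning at least 1 log2 unit. Genes named beyond this rule are marked as such, complete a list or serve as cell markers. The alternatives were leaving out each array, 2 other filters, quantile normalization, median centring, another variance prior, array weights, a replicate block, the mean of a gene's rows and the macrophage mean as a covariate. The dendritic cell and B cell covariates and 2 pairs of ligands were added after the data had been seen.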

Additional observations from a re-analysis of the deposited data

How the results depend on the processing

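The differences of Icos, Cd28, Cd86, Cd274 and Pdcd1lg2 kept their sign under all 17 alternatives run. Most of these could not have turned it. The filters, the variance prior, the replicate block and the mean of a gene's rows leave these differences as they are. Groups that do not overlap also keep their sign with array weights or with 1 array left out. Only the other normalizations and the covariates could have turned the sign. With 1 array left out, the number of members past the threshold ran from 1 to 3, Icos from -0.78 to -0.57, Cd274 from 0.76 to 1.02, and the genes past the threshold from 74 to 222 higher and from 82 to 485 lower. The higher count was 128 under median centring. Cd28 passed under the trended, robust prior (-0.36, adjusted p = 0.0410). With the macrophage mean as a covariate 1 member passed, with Icos at -0.77 and Cd86 at 0.89, and 27 genes were higher and 48 lower. With the dendritic cell mean 1 member passed, with Icos at -0.60 and Cd86 at 1.14, and 32 genes were higher and 17 lower. The B cell mean does not overlap between the groups. Of its 6 genes Cd22 differed most (1.32, against a median of 0.21), so a fit with this mean does not adjust for B cell content alone. With the B cell mean as a covariate the SE of Icos went from 0.13 to 0.28, 0 members passed, and 3 genes were higher and 0 lower. Icos stood at -0.28, Cd86 at 1.66 and Cd274 at 0.58, and the sign turned for Cd80 (0.18) and Icosl (-0.038). The change of Icos minus Cd28 ran from -0.39 to -0.26. The labels number the replicates alike in both groups without saying that the numbers pair the arrays, and the deviations of same-numbered arrays correlated at -0.02, -0.14 and 0.07. A fit with the replicate block left 3 members past the threshold (Icos -0.70, Cd86 1.10 and Cd274 0.92), 246 genes were higher and 318 lower, and the macrophage markers past it went from 1 to 8 of 13. The number of arrays limits the precision.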
